A study of Mus musculus with 10 samples.

Results

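DNA replication genes encode the proteins that copy the genome once per cell cycle. The set described here was given as a list of symbols and holds 44 genes, of 18193 genes with a named probe set on the arrays. Of these, 43 had a probe set annotated to that gene alone, and each gene was read from its brightest probe set, judged by the mean of all 10 arrays. A gene entered a test if its value passed the array median on as many arrays as 1 group holds (3 in ES cells, 2 in differentiated cells), which 42 members did at both stages. The exceptions were Chaf1a, which had no such probe set and is not analysed here, and Tyms, whose 4 probe sets lay under the array median on every array.

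The cells were mouse CGR8 embryonic stem (ES) cells of strain SV129, measured as bulk RNA on Affymetrix arrays, 1 array per sample. The groups were ES cells given 1 mM EBIO for 3 days (n = 3), untreated ES cells (n = 3), cells differentiated from the same line that spent 5 days as embryoid bodies and 10 more days with EBIO (n = 2), and such cells kept for those 10 days without EBIO (n = 2). EBIO is an opener of calcium-activated potassium channels, and the dose for the differentiated cells is not given in the sources used here. In ES cells each of passages 25, 26 and 27 gave 1 EBIO and 1 untreated array (replicates 1, 2 and 3 below). All values are log2 RMA values, so a difference of 1 is a 2-fold change, and they compare groups for 1 probe set, not genes with each other.

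Replication starts when the origin recognition complex (Orc proteins), with Cdc6 and Cdt1, loads the ring-shaped Mcm helicase onto DNA. Cyclin E kinase, Mcm10, Cdc45 and the GINS complex then take part in turning the loaded ring into a moving helicase. DNA polymerase alpha and primase lay primers, polymerases delta and epsilon extend them on the Pcna clamp, and ribonucleotide reductase, thymidylate synthase and thymidine kinase supply the building blocks. Many of these genes are known targets of E2F transcription factors and are transcribed most around S phase, and ES cells are known for a short cell cycle in which much of the time is spent in S phase.

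Promoter sequence was available from RefSeq (build GRCm38.p6) for 36 members, as windows from 250 bases before to 50 bases after an annotated start. A canonical E2F site, read on both strands as TTTCCCGC, TTTCGCGC, TTTGCCGC or TTTGGCGC, occurred in the window of 12 of the 36 (33.3%), against 575 of 17492 protein-coding genes (3.29%). The members with a match were Cdc6, Cdt1, Lig1, Mcm3, Mcm5, Mcm6, Mcm7, Orc1, Pola1, Pold1, Pole2 and Rfc3. A CCAAT box (CCAAT, either strand) occurred in 23 of the 36 (63.9%), against 42.3% of all genes, and the cell cycle element TTTGAA in 4 (11.1%), against 18.5%. These are matches of letters in a window, not measured binding. The upstream stretches of a helicase, an origin and a polymerase gene that were lower with EBIO at both stages, and of Cdc6, which moved in opposite directions at the 2 stages, are shown with the E2F letters in capitals, each read 5′ to 3′ on the gene's strand.
Mcm5, chr8:75109326-75109397, plus strand: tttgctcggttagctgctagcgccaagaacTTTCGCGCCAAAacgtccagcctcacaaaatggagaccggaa
Orc1, chr4:108579397-108579453, plus strand: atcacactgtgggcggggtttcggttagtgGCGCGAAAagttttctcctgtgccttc
Pola1, chrX:93632256-93632323, minus strand: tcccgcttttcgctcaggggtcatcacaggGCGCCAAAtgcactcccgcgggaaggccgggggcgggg
Cdc6, chr11:98907983-98908050, plus strand: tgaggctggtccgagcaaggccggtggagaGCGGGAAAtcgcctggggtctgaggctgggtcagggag
The Mcm5 stretch holds a pair of overlapping matches on opposite strands, and the other stretches hold 1 match each.

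The first comparison asked how 3 days of EBIO changed these genes in ES cells. Of the 42 tested members 20 (47.6%) were lower and 3 (7.14%) higher with EBIO at a limma adjusted p under 0.05, while 21.2% of the 12096 genes tested were lower, 23.5% higher and 44.8% one or the other. The median difference was -0.39 over the members and -0.04 over all genes tested. Falls of at least 2-fold were called for 7 members, Mcm2, Mcm3, Mcm10, Orc1, Pola1, Pold2 and Tk1, against 8.00% of all genes, and a rise of that size for Ccne2 alone, against 10.1%. With the passage as a block, 24 members were lower and 3 higher. Calls over all 12096 genes grew as well, from 2567 lower and 2846 higher to 3141 and 3333 with the block. The 3 EBIO arrays lay wholly below the 3 untreated arrays for 25 members (26.8% of all genes) and wholly above for 6 (27.9%).

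**Figure D1:**
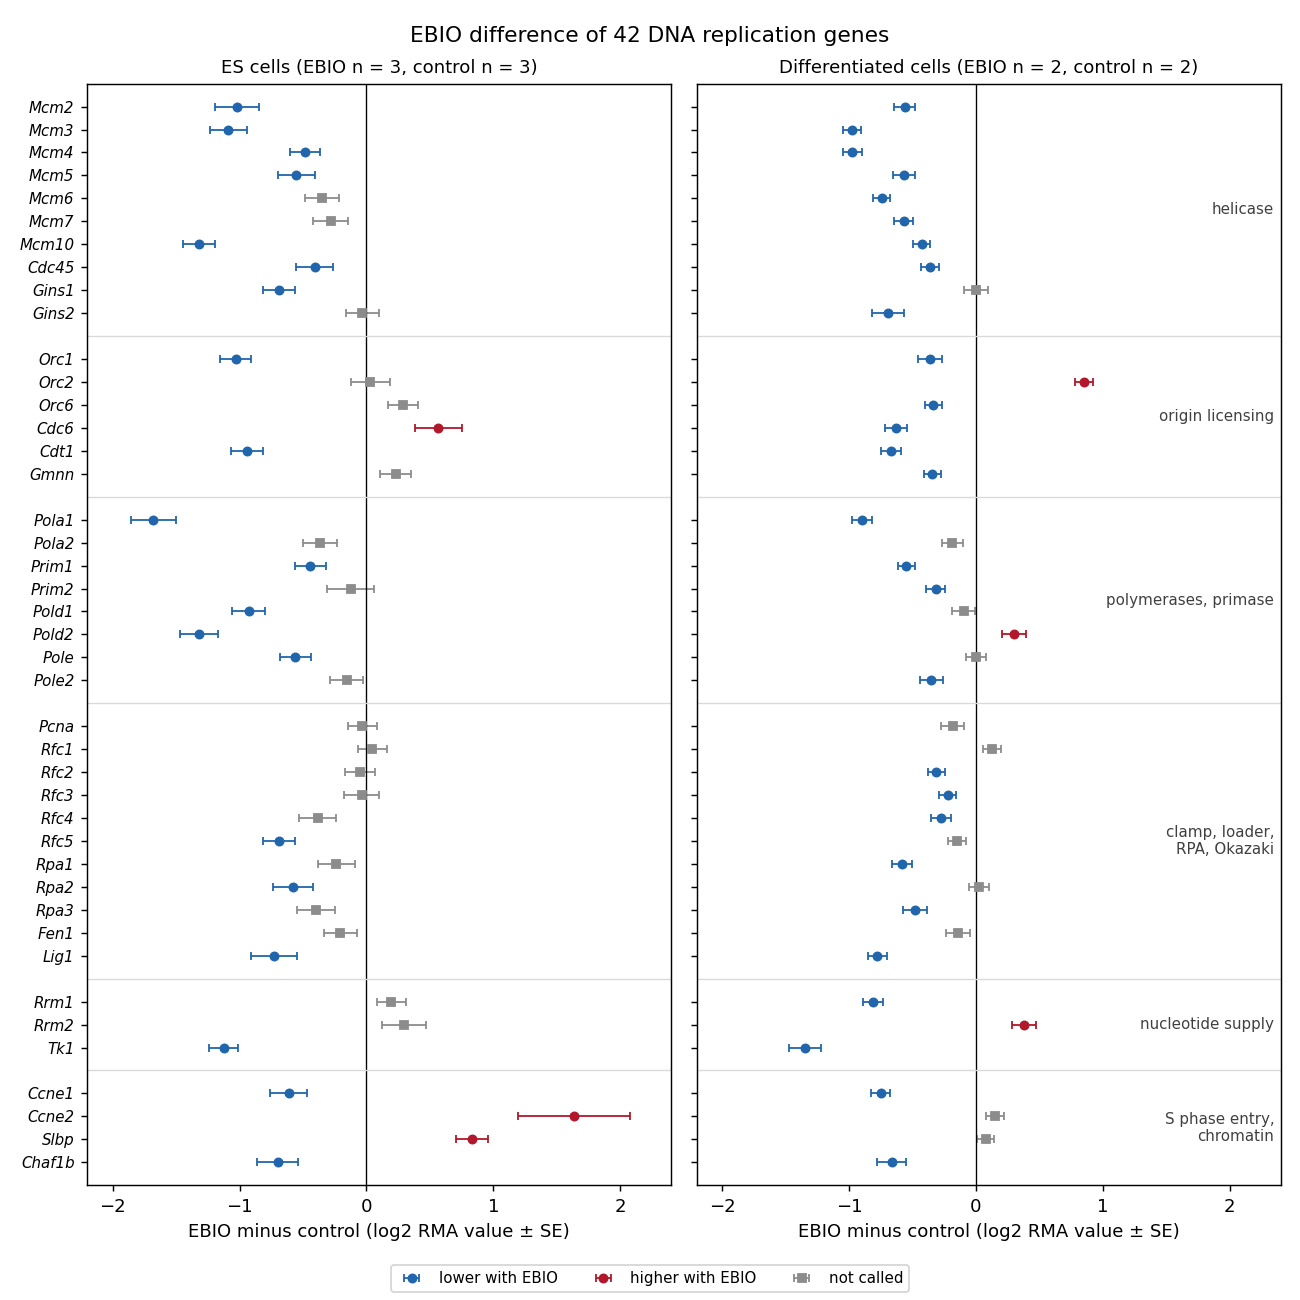
Difference between EBIO and control arrays on the log2 scale (horizontal axis, point with standard error from limma) for the 42 tested DNA replication genes, grouped by role from top to bottom, in ES cells (left) and differentiated cells (right). Blue points are lower and red points higher with EBIO at an adjusted p under 0.05, and grey squares are not called; 20 genes are blue in ES cells and 28 in differentiated cells, with 3 red genes in each.

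Helicase genes fell in ES cells in 7 of 10 (70.0%), and none rose, against 21.2% lower and 23.5% higher of all genes. Mcm10, which helps to start the helicase, had 8.02, 8.11 and 8.36 in EBIO-treated ES cells, against 9.50, 9.52 and 9.43 in untreated ES cells. The groups stood more than 1 log2 unit apart, and the fall was 2.50-fold (-1.32 ± 0.13 SE, limma adjusted p = 7.3e-05). Mcm3, a subunit of the ring, measured 9.51, 9.53 and 9.93 in EBIO-treated cells, against 10.78, 10.74 and 10.72 in untreated cells. It fell 2.13-fold (-1.09 ± 0.14, adjusted p = 0.00037), and its 5 probe sets were all lower, 4 of them by 1.08 to 1.37 and the fifth, dim one by 0.08. Mcm2, another ring subunit, had 9.43, 9.35 and 9.70 with EBIO, against 10.33, 10.37 and 10.83 without (-1.02 ± 0.17, adjusted p = 0.0014).

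The other ring subunits had smaller differences. Mcm4 (-0.48, adjusted p = 0.0095) and Mcm5 (-0.55, adjusted p = 0.014) fell, whereas Mcm6 (-0.35, adjusted p = 0.063) and Mcm7 (-0.28, adjusted p = 0.13) were not called. The ring takes up its 6 subunits in equal number, and in these arrays the differences of the 6 genes, each from its brightest probe set, ran from -1.09 to -0.28. The other Mcm7 probe sets changed by -0.42 to -0.53. The second bright Mcm6 probe set changed by -0.58, and a dim one by -0.09. With the mean of each gene's probe sets, both Mcm6 and Mcm7 were called lower. With the replicate number, that is the passage, as a block, Mcm6 passed (adjusted p = 0.032, limma). Without the passage-27 untreated array, Mcm6 (-0.46, adjusted p = 0.016) and Mcm7 (-0.39, adjusted p = 0.035) also passed. The call of Mcm5 was lost without the passage-25 or the passage-26 EBIO array (adjusted p = 0.054 and 0.057). Cdc45, an activator of the helicase, changed by -0.41 (adjusted p = 0.045), but its 2 probe sets differed in sign, and their mean changed by -0.18 (adjusted p = 0.17). Its call was also lost without any one of 4 of the 6 arrays, replicates 1 and 2 of both groups (adjusted p = 0.064 to 0.15).

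The GINS complex is a partner of the helicase, and its members in the set, Gins1 and Gins2, differed. Gins1 had 8.43, 8.65 and 8.55 in EBIO-treated ES cells, against 9.22, 9.36 and 9.12 in untreated ES cells, and fell by 0.69 (± 0.13, adjusted p = 0.0022). Gins2 had 8.40, 8.27 and 8.17 with EBIO, against 8.31, 8.43 and 8.20 without, so its groups overlapped (-0.03 ± 0.13, adjusted p = 0.86). The subunits outside the set, Gins3 (-0.26, limma adjusted p = 0.22) and Gins4 (-0.03, adjusted p = 0.89), were not called.

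Origin genes went both ways in ES cells, with 2 lower (33.3%) and 1 higher (16.7%) of 6, against 21.2% and 23.5% of all genes. Orc1, the large subunit of the origin recognition complex, had 8.03, 8.23 and 8.13 in EBIO-treated cells, against 9.15, 9.27 and 9.07 in untreated cells, a 2.04-fold fall (-1.03 ± 0.12, adjusted p = 0.00021). Cdt1, which brings the helicase to the origin, had 10.66, 10.82 and 10.87 with EBIO, against 11.69, 11.62 and 11.84 without (-0.94 ± 0.13, adjusted p = 0.0004). Its second bright probe set changed by -0.95. Cdc6, the loader's ATPase, went the other way, with 9.74, 9.80 and 10.06 in EBIO-treated cells, against 8.93, 9.38 and 9.60 in untreated cells. The groups were barely separated, and the rise of 0.57 ± 0.19 (adjusted p = 0.035) was lost without any one of 5 of the 6 arrays (adjusted p = 0.059 to 0.11), all but the passage-27 untreated one. Gmnn, which encodes geminin, the inhibitor of Cdt1, was 0.23 higher (adjusted p = 0.16), Orc6 0.29 higher (adjusted p = 0.079) and Orc2 0.03 higher (adjusted p = 0.88); none was called.

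Polymerase genes fell in ES cells in 5 of 8 (62.5%), and none rose, against 21.2% lower and 23.5% higher of all genes. Pola1, the catalytic subunit of polymerase alpha, had 6.74, 6.92 and 7.11 in EBIO-treated ES cells, against 8.48, 8.37 and 8.94 in untreated ES cells. At 3.20-fold it was the largest fall among the members (-1.68 ± 0.18, adjusted p = 0.00011). Pold2, the accessory subunit of polymerase delta, had 8.53, 9.00 and 8.78 with EBIO, against 10.19, 10.05 and 10.02 without (-1.32 ± 0.15, adjusted p = 0.00015). Pold1, its catalytic subunit, had 8.84, 8.77 and 8.88 in EBIO-treated cells, against 9.84, 9.87 and 9.56 in untreated cells (-0.93 ± 0.13, adjusted p = 0.00053). Both delta subunits of the set were lower on every EBIO array than on any untreated one, Pold1 by 1.90-fold and Pold2 by 2.49-fold. The delta subunits outside the set, Pold3 (-0.26, limma adjusted p = 0.14) and Pold4 (0.32, adjusted p = 0.17), were not called in ES cells.

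Pole, the catalytic subunit of polymerase epsilon, fell by 0.56 (adjusted p = 0.0052), while its partner Pole2 changed by -0.16 (adjusted p = 0.38). The primase subunit Prim1 fell by 0.44 (adjusted p = 0.018), a call lost without the passage-26 untreated array (adjusted p = 0.069) or the passage-25 EBIO array (adjusted p = 0.072). Its partner Prim2 changed by -0.12 (adjusted p = 0.63). Pola2, the second polymerase alpha subunit, changed by -0.36 (adjusted p = 0.056). It was called with the passage as a block (adjusted p = 0.034) and without the passage-27 untreated array (-0.47, adjusted p = 0.016).

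Of the 11 genes of the clamp, clamp loader, single-strand binding and Okazaki fragment processing, 3 were lower and none higher in ES cells. The lower share was 27.3%, beside the 21.2% of all genes called lower. Pcna, the sliding clamp, had 12.61, 12.45 and 12.58 in EBIO-treated cells, against 12.58, 12.58 and 12.57 in untreated cells (-0.03 ± 0.11, adjusted p = 0.84). Pcna lay between the 99.5 and 99.6 percentile of each ES array. Of the clamp loader genes, Rfc5 fell by 0.69 (adjusted p = 0.0021). Rfc1 (0.05), Rfc2 (-0.05) and Rfc3 (-0.04) had adjusted p of 0.77 to 0.85.

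Rfc4 changed by -0.38 (adjusted p = 0.058); it was called with the passage as a block (adjusted p = 0.018) and without the passage-26 EBIO array (-0.48, adjusted p = 0.044). Among the single-strand binding genes Rpa2 fell by 0.58 (adjusted p = 0.015, and 0.059 without the passage-26 EBIO array). Rpa1 (-0.24, adjusted p = 0.22) and Rpa3 (-0.40, adjusted p = 0.061) were not called, though Rpa3 was with the passage as a block (adjusted p = 0.033). Lig1, the ligase that joins Okazaki fragments, had 9.65, 9.67 and 9.41 with EBIO, against 10.52, 10.48 and 9.92 without (-0.73 ± 0.18, adjusted p = 0.01). The untreated passage-27 array was nearest to the EBIO arrays there. Fen1, the flap nuclease of the same step, changed by -0.21 (adjusted p = 0.24).

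Nucleotide supply genes did not move as 1 group. Tk1, the thymidine kinase of the salvage pathway, had 7.08, 7.14 and 7.07 in EBIO-treated ES cells, against 8.16, 8.28 and 8.22 in untreated ES cells, with a spread of no more than 0.12 within either group. It fell 2.18-fold (-1.12 ± 0.11, adjusted p = 7.9e-05). The ribonucleotide reductase subunits Rrm1 (0.20) and Rrm2 (0.29) were not called (adjusted p = 0.2 each); without the passage-26 EBIO array Rrm2 was (0.47, adjusted p = 0.038).

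The genes of S phase entry and chromatin assembly held 2 of the 3 rises. Slbp, which binds histone mRNA and is known to be most abundant in S phase, had 11.06, 10.84 and 10.91 in EBIO-treated cells, against 10.02, 10.24 and 10.04 in untreated cells, a 1.78-fold rise (0.83 ± 0.13, adjusted p = 0.0008). Ccne2, which encodes cyclin E2, had 6.83, 6.09 and 6.70 with EBIO, against 3.94, 4.83 and 5.95 without. Its untreated arrays spread over 2 log2 units, 1 of them under its array median of 4.62, and the rise of 1.63 ± 0.44 (adjusted p = 0.015) was lost without the passage-26 untreated array (adjusted p = 0.056) or the passage-25 EBIO array (adjusted p = 0.057). Ccne1, its paralog, moved oppositely, with 9.13, 9.11 and 9.51 in EBIO-treated cells, against 9.82, 9.95 and 9.81 in untreated cells (-0.61 ± 0.14, adjusted p = 0.0082). Chaf1b, a subunit of the histone chaperone that follows the fork, fell by 0.70 (adjusted p = 0.0065); with the mean of its probe sets, the second of which was dim, the change was -0.38 (adjusted p = 0.059).

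Outside the set, 13 of 32 further replication factors (40.6%) were lower and 4 (12.5%) higher in ES cells, with a median of -0.29. The shares of all genes, for this and the next lists, were 21.2% lower and 23.5% higher. Orc5, a further origin subunit, fell by 1.18 and Dscc1, a subunit of an alternative clamp loader, by 0.99, whereas Donson (1.24), a partner of the helicase, and Clspn (0.84), which encodes the checkpoint adaptor claspin, rose. Of 14 further nucleotide supply genes 6 (42.9%) were lower and 2 (14.3%) higher. Shmt1 (-2.48) and Mthfd1 (-1.17), both enzymes of folate metabolism, fell, and Rrm2b (1.29), the p53-inducible reductase subunit, and Dck (0.88), which encodes deoxycytidine kinase, rose. The regulators of E2F and of the passage into S phase had 7 higher (36.8%) and 3 lower (15.8%) of 19. E2f7 (1.14) and E2f5 (1.06) were highest and E2f8 (-0.86) and Cdk2 (-0.62) lowest. Of 8 chromatin partners 3 (37.5%) were lower and 2 (25.0%) higher, from Hells (-0.94) and Hat1 (-0.73) to Rbbp7 (0.47) and Asf1b (0.38). Of 19 mitosis genes 8 (42.1%) fell, led by Nusap1 (-1.09) and Bub1b (-0.89), and none rose.

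**Figure D2:**
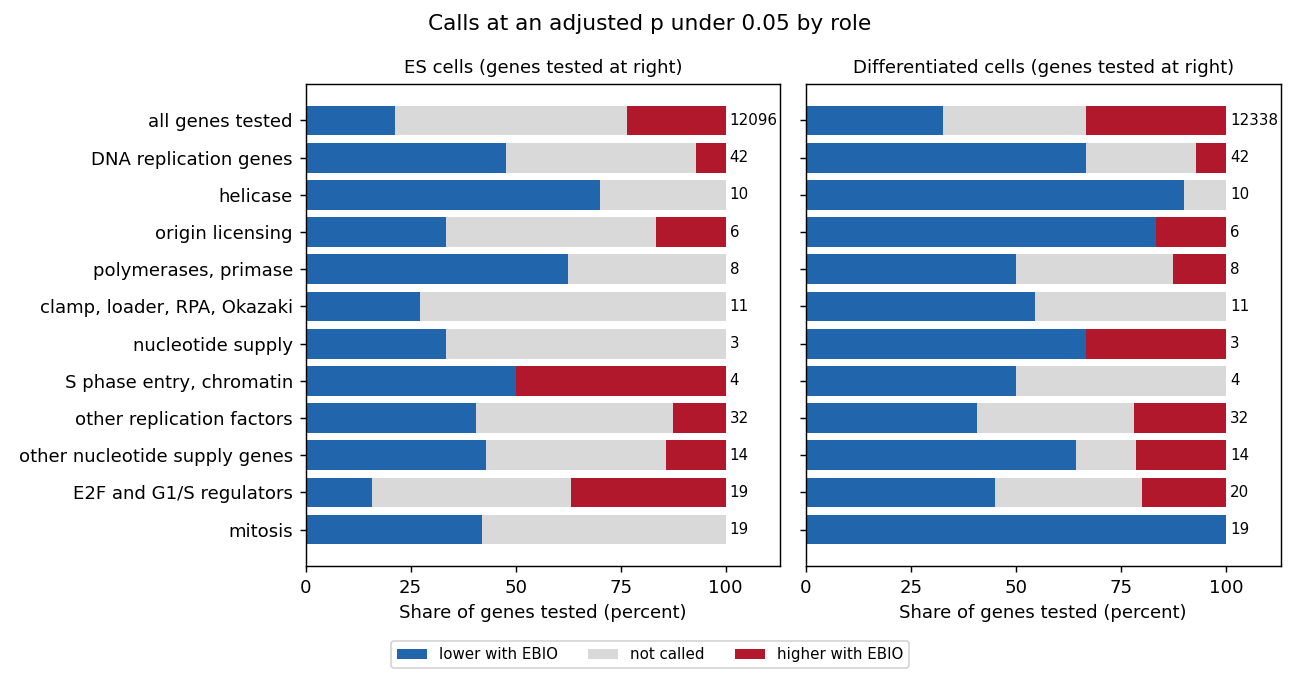
Share of the genes tested (horizontal axis, percent) that were lower (blue), not called (grey) or higher (red) with EBIO at an adjusted p under 0.05, for all genes, for the DNA replication genes as a whole and by role, and for other lists, in ES cells (left) and differentiated cells (right). The number of genes tested stands at the right of each bar. The helicase genes are lower in 7 of 10 in ES cells and 9 of 10 in differentiated cells, and mitosis genes in 8 and 19 of 19. All genes tested are lower in 21.2% in ES cells and 32.6% in differentiated cells.

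Other features moved with the same arrays. All 8 pluripotency markers fell in ES cells, and the log2 of their summed level was 12.11 to 12.27 in EBIO-treated cells, against 14.91 to 15.02 in untreated cells. Pou5f1 and Nanog, which define the state, fell 18.3-fold and 11.8-fold. They were among the 7 of 8 pluripotency markers that still exceeded the array median on all 6 arrays. The remaining marker, Tdgf1, fell 188-fold to a mean of 4.10 with EBIO, and only 1 EBIO array exceeded the array median. Of 8 markers in each list, 1 cardiac (Myl7), 1 fibroblast (Col1a2), 1 macrophage (Cd68), 4 endothelial (Pecam1, Kdr, Flt1 and Egfl7) and 4 endoderm and liver markers (Alb, Apoa1, Ttr and Hnf4a) exceeded it on all 6 arrays as well. In the same lists 4 cardiac, 7 fibroblast, 5 macrophage, 2 endothelial and 2 endoderm and liver markers exceeded it on none. The leukocyte marker Laptm5 averaged 4.69 in EBIO-treated cells and 9.11 in untreated cells, and Pecam1 averaged 4.75 in EBIO-treated cells and 7.68 in untreated cells. Their lists did not fall as a whole. Laptm5 was the only 1 of 3 tested macrophage markers called lower. Of 6 tested endothelial markers 2, Pecam1 and Tek, were lower and 1, Flt1, was higher, averaging 6.28 in EBIO-treated cells and 5.08 in untreated cells. Of 8 epithelial markers 4 were higher and 3 lower, with a summed level of 13.57 to 14.00 with EBIO, against 11.66 to 12.16 without. The Actb control probes, which report on RNA integrity, gave a 3′ minus 5′ difference of 0.08 to 0.20 with EBIO, against 0.33 to 0.50 without. For the Gapdh control probes the same difference overlapped between the groups, with 0.01 to 0.04 with EBIO, against -0.08 to 0.06 without. The part of these shifts in the fall of the replication genes was not tested. In bulk RNA, fewer cells that copy their DNA and less RNA per such cell cannot be told apart.

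The next comparison asked how 10 days of EBIO changed the same genes in differentiating cells. Of the 42 tested members 28 (66.7%) were lower and 3 (7.14%) higher with EBIO, while 32.6% of the 12338 genes tested were lower, 33.3% higher and 65.9% one or the other. The changes were small: the median was -0.36 over the members and 0.02 over all genes, and only Tk1 fell by at least 2-fold, against 12.4% of all genes, and no member rose that far, against 6.31%. Both EBIO arrays lay below both control arrays for 31 members (41.0% of all genes) and above for 6 (43.4%).

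Helicase genes were lower in 9 of 10 (90.0%) and none was higher, against 32.6% and 33.3% of all genes. Mcm3 had 9.06 and 9.01 in EBIO-treated differentiated cells, against 10.05 and 9.97 in untreated ones, a 1.97-fold fall (-0.98 ± 0.07, adjusted p = 0.00012). Mcm4 had 10.02 and 10.01 with EBIO, against 11.03 and 10.94 without (-0.97 ± 0.07, adjusted p = 0.00011). The 6 ring subunits were lower by 0.56 to 0.98, and all were called. Gins2 had 9.13 and 8.92 in EBIO-treated cells, against 9.58 and 9.86 in untreated cells (-0.69 ± 0.12, adjusted p = 0.0039). Gins1 had 8.63 and 8.46 with EBIO, against 8.48 and 8.62 without, so that its groups overlapped (adjusted p = 0.98). Mcm10 (-0.43, adjusted p = 0.0024) and Cdc45 (-0.36, adjusted p = 0.0062) fell; the mean of the Cdc45 probe sets changed by -0.09 (adjusted p = 0.25).

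Origin genes fell in 5 of 6 (83.3%) and rose in 1 (16.7%), against 32.6% and 33.3% of all genes. Cdt1 had 10.50 and 10.36 in EBIO-treated cells, against 11.13 and 11.07 in untreated cells (-0.67 ± 0.08, adjusted p = 0.00081). Cdc6 had 7.41 and 7.30 with EBIO, against 8.06 and 7.90 without (-0.63 ± 0.09, adjusted p = 0.0014). Orc6 (-0.34, adjusted p = 0.0061) and Gmnn (-0.34, adjusted p = 0.0055) fell together with them. Orc1 fell by 0.36 (adjusted p = 0.016), but not without control array 1 or EBIO array 2 (adjusted p = 0.09 and 0.084), and the mean of its probe sets, which differed in sign, changed by -0.16 (adjusted p = 0.088). Orc2 was the exception, with 8.83 and 8.89 in EBIO-treated cells, against 8.04 and 7.98 in untreated cells. It rose 1.80-fold (0.85 ± 0.07, adjusted p = 0.00018), and its other probe sets were higher by 0.22 and 0.25.

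Polymerase genes fell in 4 of 8 and rose in 1. Pola1 had 7.69 and 7.61 in EBIO-treated cells, against 8.60 and 8.49 in untreated cells (-0.90 ± 0.08, adjusted p = 0.00021), and Prim1 fell by 0.55 (adjusted p = 0.00081). Prim2 (-0.32, adjusted p = 0.011) and Pole2 (-0.35, adjusted p = 0.016) were also lower, but lost their calls without 1 array, Prim2 without control array 1 (adjusted p = 0.055) or EBIO array 1 (0.051), and Pole2 without control array 2 (0.077) or EBIO array 2 (0.079). The catalytic subunits of delta and epsilon were not called: Pold1 had 8.47 and 8.43 with EBIO, against 8.65 and 8.44 without (adjusted p = 0.39), and Pole had 7.54 and 7.45 with EBIO, against 7.55 and 7.43 without (adjusted p = 0.99). Pold2 had 10.38 and 10.42 in EBIO-treated cells, against 10.21 and 9.99 in untreated cells (0.30 ± 0.09, adjusted p = 0.033). This rise was lost without control array 2 (0.19, adjusted p = 0.13), EBIO array 1 (adjusted p = 0.081) or EBIO array 2 (adjusted p = 0.12). Pola2 changed by -0.19 (adjusted p = 0.1).

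Of the 11 genes of the clamp, clamp loader, single-strand binding and Okazaki fragment processing, 6 fell and none rose. The lower share was 54.5%, beside 32.6% of all genes called lower and 33.3% called higher. Lig1 had 9.52 and 9.44 in EBIO-treated cells, against 10.28 and 10.23 in untreated cells (-0.78 ± 0.07, adjusted p = 0.00028). Rpa1 (-0.58, adjusted p = 0.0014) and Rpa3 (-0.48, adjusted p = 0.0052) fell, while Rpa2 changed by 0.02 (adjusted p = 0.82). Pcna had 12.09 and 12.04 with EBIO, against 12.15 and 12.35 without (-0.18 ± 0.09, adjusted p = 0.11). Rfc2 fell by 0.31 (adjusted p = 0.008). The falls of Rfc3 (-0.22, adjusted p = 0.03) and Rfc4 (-0.28, adjusted p = 0.023) were lost without single arrays: Rfc3 without any of the 4 (adjusted p = 0.078 to 0.14), and Rfc4 without control array 1 or either EBIO array (0.062 to 0.11). Rfc1 (0.13), Rfc5 (-0.15) and Fen1 (-0.14) were not called (adjusted p = 0.16, 0.11 and 0.24).

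Nucleotide supply again divided. Tk1 had 8.27 and 7.91 in EBIO-treated cells, against 9.40 and 9.48 in untreated cells, the largest fall among the members at this stage, 2.54-fold (-1.35 ± 0.13, adjusted p = 0.00029). Rrm1, the large subunit of ribonucleotide reductase, had 10.32 and 10.20 with EBIO, against 11.04 and 11.10 without (-0.81 ± 0.08, adjusted p = 0.0003), and its second bright probe set changed by -0.91. Rrm2, the small subunit, had 11.57 and 11.37 in EBIO-treated cells, against 11.15 and 11.03 in untreated cells (0.38 ± 0.09, adjusted p = 0.015). Its call was lost without control array 2 or EBIO array 1 (adjusted p = 0.085 and 0.075), although all 3 of its probe sets were higher. Ccne1 (-0.75, adjusted p = 0.00033) and Chaf1b (-0.66, adjusted p = 0.0036) fell. Ccne2 (0.15, adjusted p = 0.1) and Slbp (0.08, adjusted p = 0.36) were not called, though the mean of the Slbp probe sets was (0.33, adjusted p = 0.0086), and the mean of the Chaf1b probe sets changed by -0.21 (adjusted p = 0.12).

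**Figure D3:**
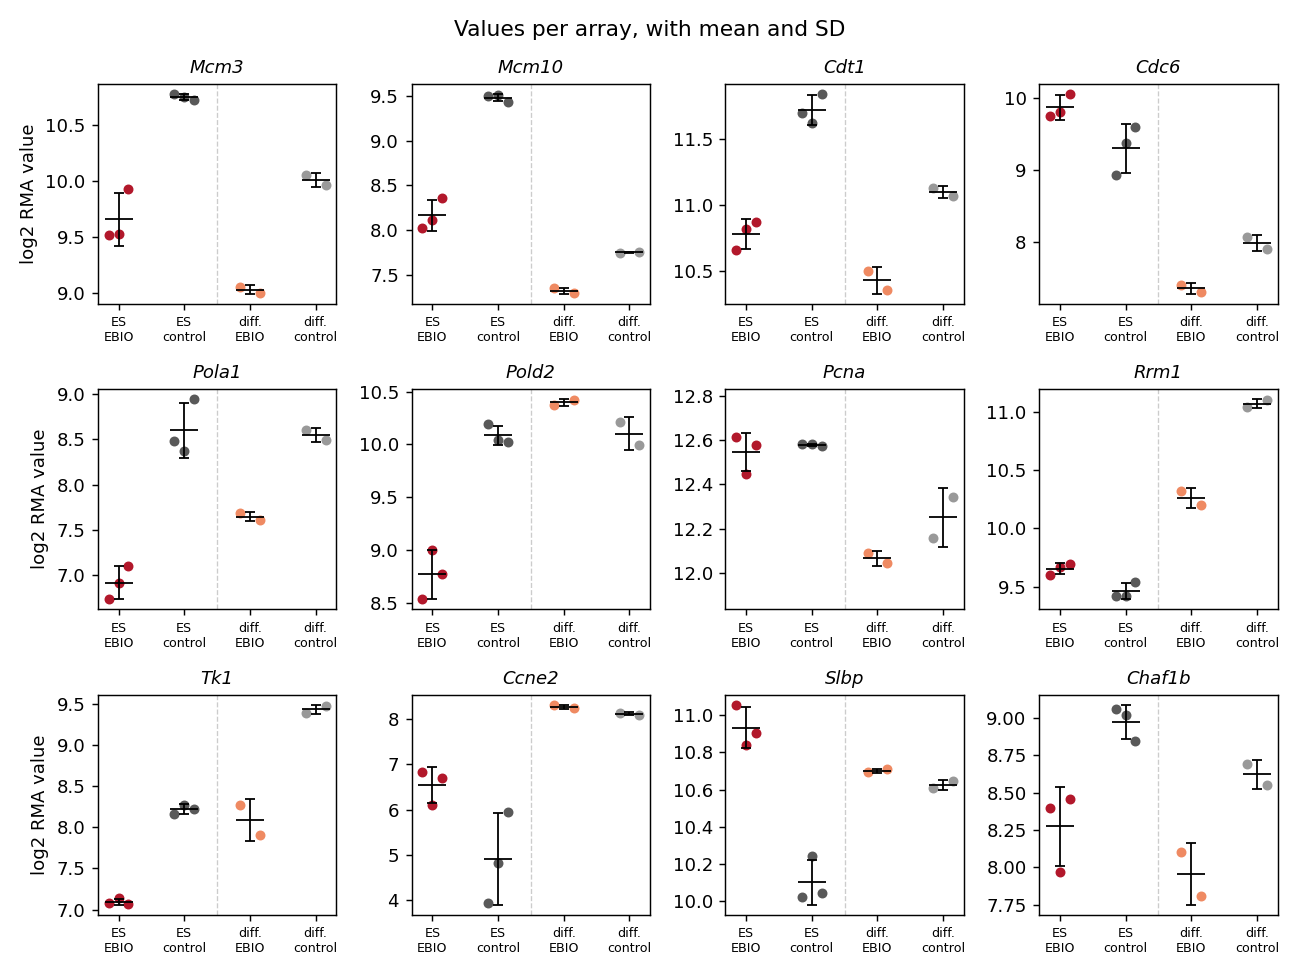
Log2 RMA value on every array (points) with mean and SD (black) for 12 DNA replication genes, with EBIO left of control at each stage and a dashed line between ES and differentiated arrays. Mcm3, Mcm10, Cdt1, Pola1, Tk1 and Chaf1b lie lower with EBIO at both stages. Pold2, Cdc6 and Rrm1 (not called in ES cells) change side between the stages, and Pcna has overlapping groups in ES cells. Values left and right of the dashed line were normalized separately.

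Outside the set, 13 of 32 further replication factors (40.6%) fell and 7 (21.9%) rose in differentiated cells. The shares of all genes, for this and the next lists, were 32.6% lower and 33.3% higher. Pold4 (-1.14), the smallest polymerase delta subunit, and Top2a (-0.67), which encodes a topoisomerase of dividing cells, fell most, and Donson (0.65) and Mcm9 (0.46), a relative of the ring subunits, rose most. Of 14 further nucleotide supply genes 9 (64.3%) fell and 3 (21.4%) rose. Dctd (-1.99), which encodes dCMP deaminase, and Shmt1 (-1.44) led the falls, against Rrm2b (0.74) and Dck (0.64). E2F and S phase regulators fell in 9 of 20 (45.0%) and rose in 4 (20.0%). Skp2 (-1.09), part of a ubiquitin ligase that removes Cdk inhibitors, and Cdkn1a (-0.98), which encodes the inhibitor p21, were lowest. The pocket protein gene Rb1 (1.20) and E2f6 (0.71) were highest. Of the 8 chromatin partners 3 (37.5%) fell and 1 (12.5%) rose, with Hells (-0.48) and Asf1b (-0.42) lowest and Asf1a (0.36) higher. All 19 mitosis genes fell, by 0.44 to 1.40, Bub1b (-1.40) and Cenpa (-1.24) most.

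Markers of several cell types moved on the same differentiated arrays. All 8 cardiac muscle markers rose, with a log2 summed level of 16.60 to 16.63 in EBIO-treated cells, against 13.72 to 13.87 in untreated cells. All 8 fibroblast markers fell (11.86 to 11.95 with EBIO, against 15.78 to 15.83 without), as did all 8 macrophage markers (7.54 to 7.60 with EBIO, against 13.97 to 14.22 without). All 8 epithelial markers (12.24 to 12.41 with EBIO, against 13.54 to 13.59 without), the 7 tested endothelial (9.37 to 9.39 with EBIO, against 10.90 to 10.97 without) and the 7 tested endoderm and liver markers (8.47 to 8.58 with EBIO, against 12.15 to 12.63 without) fell too. On both EBIO arrays the array median was exceeded by none of the 8 macrophage markers, 3 of 8 endothelial (Kdr, Flt1 and Egfl7), 2 of 8 endoderm and liver (Ttr and Hnf4a), 6 of 8 fibroblast and 6 of 8 epithelial markers. On both control arrays it was exceeded by 8 macrophage, 7 endothelial, 7 endoderm and liver, 8 fibroblast and 8 epithelial markers. The part of these shifts in cell type in the values of the replication genes was not tested.

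In differentiated and in ES cells alike, 14 members were called lower: Mcm2, Mcm3, Mcm4, Mcm5, Mcm10, Cdc45, Orc1, Cdt1, Pola1, Prim1, Lig1, Tk1, Ccne1 and Chaf1b. A further 13 were called lower in differentiated cells and not called in ES cells, and 5 (Gins1, Pold1, Pole, Rfc5 and Rpa2) the reverse. Pola2, Pcna, Rfc1 and Fen1 were called at neither stage. Over the 42 members the differentiated and ES differences had 1 sign in 36 and correlated at Pearson r = 0.37 (Spearman rho = 0.35), as a description over genes that share their arrays. Of the 42 members, 33 were below 0 in ES cells and 35 in differentiated cells. Among all genes tested, 6522 of 12096 were below 0 in ES cells and 5974 of 12338 in differentiated cells. The joint calls, shared signs and correlation were not taken over all genes tested, so they cannot be called particular to these members.

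The difference between the EBIO effects, that in differentiated cells minus that in ES cells, was tested in 1 limma fit of all 4 groups. It was called for 17 of 42 members, 10 with a positive and 7 with a negative difference, against 20.5% and 25.0% of the 13712 genes tested. This share of members (17 of 42) lay near the 45.5% of all genes called in either direction. A difference of at least 1 log2 unit was called for Pold2 (positive, against 9.65% of all genes) and for Cdc6 and Rrm1 (negative, against 16.1%). Pold2 had the largest positive difference (1.62, adjusted p = 7.3e-05), from effects of 0.30 in differentiated and -1.32 in ES cells. The other polymerase subunits with a positive difference were Pold1 (0.83, adjusted p = 0.0029), Pola1 (0.78, adjusted p = 0.022) and Pole (0.56, adjusted p = 0.014). Cdc6 (-1.19, adjusted p = 0.0029) and Rrm1 (-1.01, adjusted p = 0.00021) had the largest negative ones among the called members, with effects of -0.63 and -0.81 in differentiated cells, against 0.57 and 0.20 in ES cells. Ccne2 had a larger negative difference (-1.48) that was not called (adjusted p = 0.074), but was with the replicate block (adjusted p = 0.034) and without the passage-27 untreated ES array (adjusted p = 0.0011). Both GINS members of the set were called in opposite directions, Gins1 at 0.69 (adjusted p = 0.0077) and Gins2 at -0.66 (adjusted p = 0.015). For Pola1 the call was lost without control array 2 (adjusted p = 0.082) or either EBIO array of the differentiated set (0.077 and 0.054), for Pole without control array 2 (0.071) or EBIO array 1 (0.066), and for Gins2 without control array 2 (0.086) or EBIO array 2 (0.079).

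**Figure D4:**
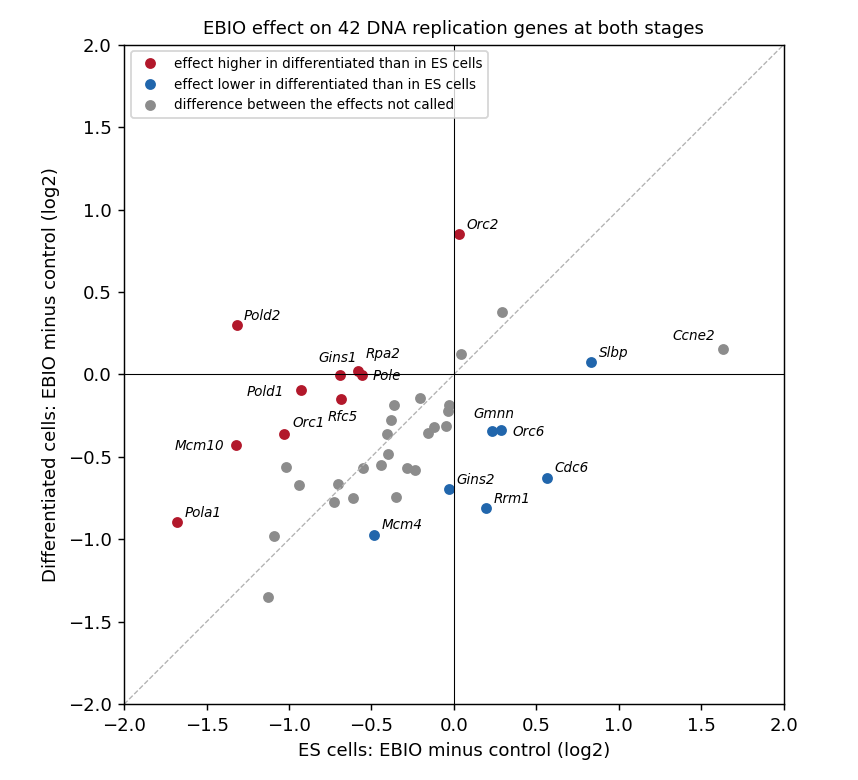
EBIO minus control difference in differentiated cells (vertical axis, log2) against that in ES cells (horizontal axis, log2) for 42 DNA replication genes, with a dashed line of equal effects. Red and blue points are genes whose effect was higher or lower in differentiated than in ES cells at an adjusted p under 0.05; 36 of 42 genes have the same sign at both stages, and Pold2 lies farthest above the line among the called genes.

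Set beside the promoter letters, 11 of the 12 tested members with an E2F site fell in differentiated cells and none rose, as did 12 of the 22 without one, of which 3 rose. In ES cells 7 of the 12 with a site fell and Cdc6 rose, and of the 22 without one 10 fell and 1, Slbp, rose. All genes tested were lower in 32.6% and higher in 33.3% in differentiated cells, and in 21.2% and 23.5% in ES cells. The counts by E2F site are given as a description without a test.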

How the data were processed

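Total RNA of 10 samples was labelled with biotin by a one-cycle protocol and hybridised to Affymetrix arrays, per the labels. The deposited values are on a log2 scale, and the submitters' processing notes name RMA as the authors' method; versions and probe-level files are not given in the sources used here. Array quantiles differed by at most 0.093 within the 6 ES arrays and 0.0495 within the 4 differentiated arrays, but by at least 0.912 between them, so the sets were treated as separately normalized and no level was compared across them. The number of arrays limits the precision. Replicates are independent experiments per the series' design text.

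Of 45101 probe sets, 34945 non-control ones had 1 gene symbol, brought up to date by gene ID for 34741 (RefSeq gene table, GRCm38.p6). The linear models were those of limma (version 3.58.1, R 4.3.3; lmFit, then eBayes), checked on simulated data, with p-values adjusted by Benjamini-Hochberg over all genes tested and called at 0.05; ES and differentiated arrays had separate fits. The filter was the array median (50th percentile). Differences are EBIO minus control. All 44 members are named, and from each other list of pathway genes the 2 largest called rises and falls per comparison. The members and lists were chosen with earlier results of these data known. In ES cells same-numbered arrays share a passage and deviated together (r = 0.329, 0.225 and 0.604 over genes), so the numbers pair them; the block is an alternative. The other alternatives changed the filter, the choice of probe set, the arrays in the fit, the scaling and the variance prior, or left out 1 array. The marker lists are summed as log2 of the sum of linear values. Erythroid markers (0 of 6 tested in differentiated cells, 3 tested and none called in ES cells, where 0 had an unadjusted p under 0.05 in limma) and neural markers (4 higher and 2 lower of 6 in differentiated cells, 3 higher and 2 lower of 7 in ES cells) were also counted. In ES cells, of the markers tested, cardiac muscle had 1 higher and 1 lower of 3, macrophage 1 lower of 3, endothelial 1 higher and 2 lower of 6, epithelial 4 higher and 3 lower of 8, and fibroblast (1) and endoderm (6) none called (0 at an unadjusted p under 0.05 in limma). Of 4 pluripotency markers tested in differentiated cells 1 was higher and 1 lower.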

Additional observations from a re-analysis of the deposited data

Results flagged for a closer look

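The EBIO effects at the 2 stages differed for 17 members by the test of the difference itself (effect in differentiated cells minus effect in ES cells, log2, limma, 4 groups). Positive differences were found for Pold2 (1.62), Mcm10 (0.89), Pold1 (0.83), Orc2 (0.82), Pola1 (0.78), Gins1 (0.69), Orc1 (0.67), Rpa2 (0.60), Pole (0.56) and Rfc5 (0.54). Negative differences were found for Cdc6 (-1.19), Rrm1 (-1.01), Slbp (-0.76), Gins2 (-0.66), Orc6 (-0.62), Gmnn (-0.57) and Mcm4 (-0.49). Of all genes tested 45.5% were called by the same test, so the number of members is not particular to them. The call of Rpa2 (adjusted p = 0.037) was lost without any one of 8 of the 10 arrays (adjusted p = 0.051 to 0.14). Without single arrays of the differentiated set Mcm4 and Rfc5 also lost their calls (adjusted p = 0.066 to 0.091 and 0.057 to 0.081), and with values averaged over each gene's probe sets Mcm4, Orc2, Pola1 and Slbp did (adjusted p = 0.061 to 0.20). No group held the 4 arrays that a check for single outlying arrays needs.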

How the results depend on the processing

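No called member reversed its direction under any alternative run. Members lower in ES cells numbered 19 to 24 under the alternatives that kept all arrays and 17 to 23 without single arrays, against 20; members higher numbered 1 to 3 without single arrays, with 1 without control array 2 and without EBIO array 1. In differentiated cells the lower members numbered 22 to 29 with all arrays and 24 to 26 without single arrays, against 28; the higher ones numbered 1 to 3 without single arrays, and 1 with all 4 groups fitted together, where Cdc45, Prim2, Pold2, Pole2, Rfc3, Rfc4 and Rrm2 lost their calls. For the difference between the effects, 6 to 10 members were positive and 5 to 8 negative without single arrays, and 6 were positive without differentiated control array 2 or EBIO array 1. With the replicate block, 24 members were lower and 3 higher in ES cells and 27 lower and 2 higher in differentiated cells, where Pold2 and Rfc3 lost their calls (adjusted p = 0.052 and 0.069). Over all genes this block gave 3141 lower and 3333 higher in ES cells and 3761 lower and 3731 higher in differentiated cells. For the difference, the block gave 11 positive and 8 negative, adding Mcm2 and Ccne2; besides these and Mcm6, Pola2, Rfc4 and Rpa3 in ES cells, it changed no other member's call. In differentiated cells the numbers are labels only, and same-numbered deviations correlated at -0.114; pairing the numbers crosswise, chosen after seeing the data, gave 28 lower and 3 higher. Setting array medians equal gave 26 lower and 4 higher there. Over all genes in differentiated cells, 4023 were lower and 4111 higher, against 2999 and 2577 with all 4 groups fitted together and 2529 and 3148 with the filter at the 75th percentile, which tests fewer genes. With 2 arrays per group, the differentiated fit has 2 residual degrees of freedom.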
